A study of Homo sapiens with 6 samples.

Results

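The genes described here are 48 DNA repair genes, chosen by name and grouped by repair pathway, out of 56584 gene symbols named in the deposited tables. They cover homologous recombination (11 genes), damage signalling (7), end joining (9), mismatch repair (5), the Fanconi anaemia pathway (6), base excision repair (6), direct reversal (1) and translesion synthesis (3). Polyadenylated RNA was sequenced from untreated cultures of 2 human cell lines labelled as lymphoma B cells, LY19WT and LY19Y646F, at passages 10 to 15, with 3 libraries of each. LY19WT is labelled as wild type for EZH2, the enzyme that methylates lysine 27 of histone H3 within Polycomb repressive complex 2. LY19Y646F is labelled as expressing EZH2-Y646F constitutively from a CMV promoter, a strong viral promoter that is not the gene's own. With 1 line per genotype, an effect of the mutant and a difference between the lines cannot be told apart.

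Cells mend a broken double helix either by copying the sister chromatid (homologous recombination) or by ligating the ends (end joining), which B cells also use while they rearrange and switch their immunoglobulin genes. Mismatch repair corrects copying errors, base excision repair removes single damaged bases, the Fanconi anaemia pathway unhooks crosslinks between strands, and translesion polymerases copy past damage. Mismatch and base excision factors also act in germinal centre B cells on the uracils made during antibody diversification.

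EZH2 measured 60.6, 76.5 and 74.7 FPKM in LY19WT against 70.2, 80.4 and 93.5 FPKM in LY19Y646F, where FPKM is fragments per transcript length and sequencing depth. On the log2(FPKM + 1) scale EZH2 differed by 0.20 (SE 0.15, limma adjusted p 0.38), and the tables do not separate mutant from wild-type transcripts. Summed levels of 6 B cell markers ranged from 269 to 427 FPKM in LY19WT and from 586 to 934 FPKM in LY19Y646F, but MS4A1 and BLK stayed under 1 FPKM in each LY19WT library. Precursor B cell markers (5 of 5 summed) held 781 to 2345 FPKM in LY19WT against 1.76 to 5.71 FPKM in LY19Y646F. The 4 plasma cell markers summed to 153 to 170 FPKM in LY19WT and to 35.4 to 45.7 FPKM in LY19Y646F, with XBP1 the most abundant in both lines. IRF4, of the same list, went the other way, at 0.282 to 0.317 FPKM in LY19WT against 7.45 to 21.5 FPKM in LY19Y646F. The 5 myeloid markers summed to 11.4 to 13.9 FPKM in LY19WT, of which LYZ held 10.1 to 13.4, and to 0.374 to 0.723 FPKM in LY19Y646F. The 5 T cell, 4 NK cell and 4 fibroblast markers summed to at most 1.47, 1.13 and 0.270 FPKM in any library. In bulk RNA, fewer cells of a type and less RNA per cell cannot be told apart. In LY19WT replicate 3 the 10 highest rows took 27.5% of all FPKM, against 5.71% to 9.38% in the other libraries. The part of these differences in the repair gene results was not tested.

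Of the 48 genes, 33 could be tested. The assembly of transcripts placed 12 others in a row shared with another protein-coding gene in at least 1 library, XRCC6 had a failed row in LY19WT replicate 2, and RAD52 and REV1 were listed at 0 in all 6 libraries. Between the lines, 9 of the 33 tested genes passed limma at an adjusted p under 0.05, or 27.3%, where 33.2% of all 10677 tested genes did. The 5 that rose in LY19Y646F were MGMT, RNF168, EXO1, XRCC4 and RAD51C, and 16.7% of all tested genes rose. RAD54L, MLH3, PRKDC and FANCI fell, and 16.5% of all tested genes fell. Among these 9, 5 differed by at least 1 on the log2(FPKM + 1) scale, and 20.4% of all tested genes were both called and at least this far apart. The median difference was -0.20 over the repair genes and -0.03 over all tested genes, and the median size regardless of sign was 0.48 and 0.63. The libraries of the lines did not overlap for 17 repair genes, or 51.5%, and for 48.5% of all tested genes. These shares are near those of all tested genes, and the called repair genes moved in both directions.

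**Figure D1:**
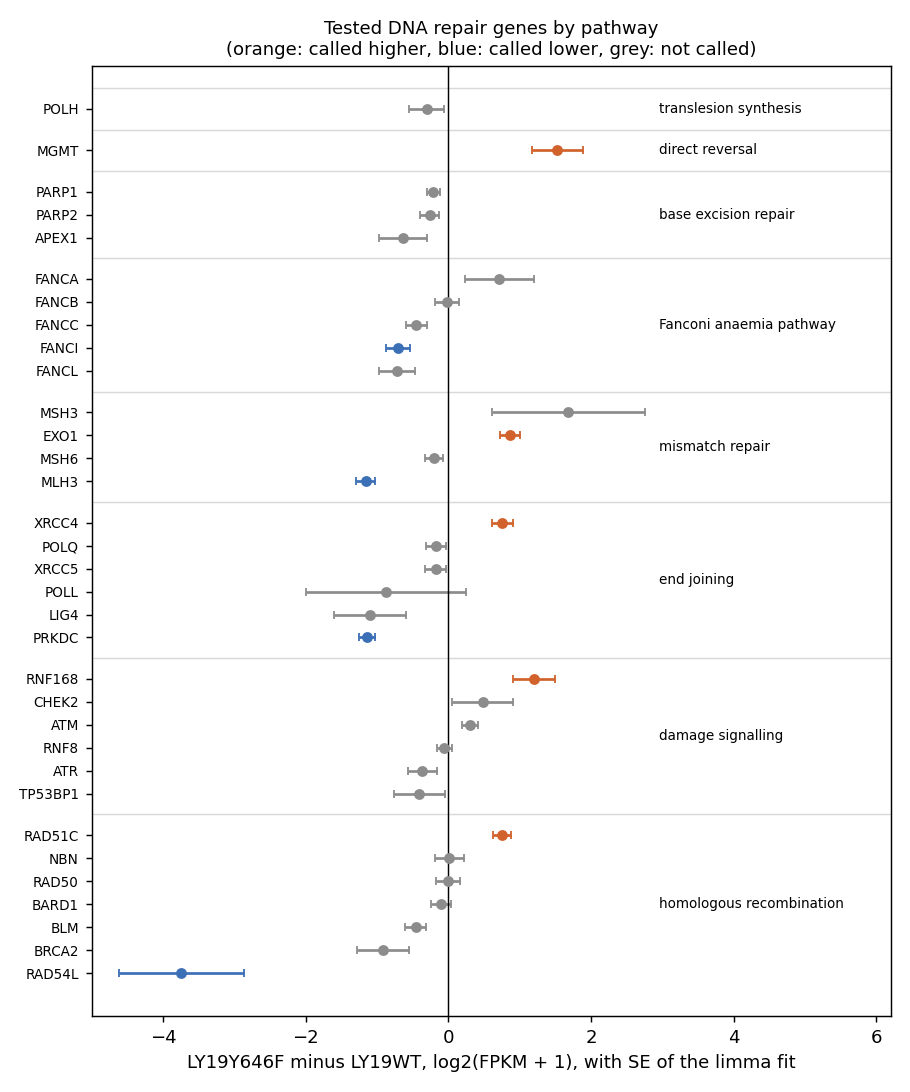
Difference between the lines for each of the 33 tested repair genes, LY19Y646F minus LY19WT on the log2(FPKM + 1) scale (horizontal axis), with the standard error of the limma fit as bars and genes grouped by pathway. RAD54L lies farthest to the left at -3.74, and MSH3, which was not called, farthest to the right at 1.68 with a wide error.

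RAD51C, EXO1, MLH3 and PRKDC were called under each of the 16 alternative settings in which they were tested (15 for MLH3). Each of the other 5 calls was lost under at least 1 setting that left out a single library. Without LY19Y646F replicate 2, 4 of the 9 calls remained. Of the 24 tested repair genes that were not called, 10 passed under at least 1 setting. These were ATM, BLM, BRCA2, CHEK2, FANCA, FANCC, FANCL, MSH6, PARP1 and PARP2.

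Promoter sequences are shown for the 2 genes that rose most (MGMT and RNF168) and the 2 that fell most (RAD54L and MLH3), so that a reader can see what these starts have in common. Each is the 250 bases before the first start listed by RefSeq (GRCh38.p14; RAD54L has 2 listed starts), 5′ to 3′ on the gene's strand, and capitals mark GC boxes (GGGCGG) and CCAAT boxes (CCAAT) on either strand.
MGMT (chr10:129466991-129467240, plus strand): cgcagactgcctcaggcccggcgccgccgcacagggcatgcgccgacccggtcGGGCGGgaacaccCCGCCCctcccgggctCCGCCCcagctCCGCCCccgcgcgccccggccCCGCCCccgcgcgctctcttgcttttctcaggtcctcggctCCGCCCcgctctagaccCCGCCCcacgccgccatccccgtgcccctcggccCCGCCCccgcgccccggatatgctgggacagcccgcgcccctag
RNF168 (chr3:196503769-196504018, minus strand): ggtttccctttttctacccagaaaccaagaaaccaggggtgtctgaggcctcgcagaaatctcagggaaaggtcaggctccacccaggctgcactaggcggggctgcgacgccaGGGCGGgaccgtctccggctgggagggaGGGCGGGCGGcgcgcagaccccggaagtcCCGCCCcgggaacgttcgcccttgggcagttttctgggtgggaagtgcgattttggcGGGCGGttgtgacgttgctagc
RAD54L (chr1:46247438-46247687, plus strand): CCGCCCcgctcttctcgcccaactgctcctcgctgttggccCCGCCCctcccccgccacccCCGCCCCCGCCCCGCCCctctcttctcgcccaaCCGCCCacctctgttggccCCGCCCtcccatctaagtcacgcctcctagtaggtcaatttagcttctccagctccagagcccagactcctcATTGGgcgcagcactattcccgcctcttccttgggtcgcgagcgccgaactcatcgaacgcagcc
MLH3 (chr14:75051468-75051717, minus strand): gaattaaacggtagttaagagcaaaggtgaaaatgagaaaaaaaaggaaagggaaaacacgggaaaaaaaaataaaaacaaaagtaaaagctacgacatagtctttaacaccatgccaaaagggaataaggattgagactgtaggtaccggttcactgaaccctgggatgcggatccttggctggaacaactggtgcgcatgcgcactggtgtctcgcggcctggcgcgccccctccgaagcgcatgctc

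The MGMT window held 8 GC boxes and 36 CpG dinucleotides, the RNF168 window 5 and 20, the RAD54L window 7 and 21 with 1 CCAAT box, and the MLH3 window 0 and 13, counting overlapping GC boxes separately. Genes that rose and genes that fell thus both had GC-rich starts, and MLH3, which fell, had none of the boxes searched. RefSeq windows were found for 44 of the 48 genes, 66 windows in all. A GC box lay in 69.7% of these windows and in 42.6% of all 35116 windows of this length. A CCAAT box lay in 42.4% and 32.0% of them. The E2F letters TTTCGCGC, TTTGGCGC or TTTCCCGC lay in 3.03% and 2.32%, and the CHR letters TTTGAA, searched for as a cell cycle element, in 7.58% and 13.3%, on either strand. These are matches of letters, not binding sites.

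In homologous recombination 1 of 7 tested genes rose and 1 fell. RAD51C, a paralog of the strand-exchange recombinase family (hg19 chromosome 17, 56769934 to 56811703), measured 70.2, 63.6 and 69.7 FPKM in LY19WT against 102, 112 and 134 FPKM in LY19Y646F. Every LY19Y646F library was above every LY19WT library, and the means of 67.8 ± 3.66 and 116 ± 16.2 FPKM (SD, n = 3 each) differed 1.71-fold. The log2 difference was 0.76 (SE 0.13, limma adjusted p 0.0077).

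RAD54L encodes the motor protein RAD54, which drives strand exchange during recombination (hg19 chromosome 1, 46713360 to 46744145). It measured 23.1, 29.8 and 24.9 FPKM in LY19WT, while in LY19Y646F it was listed at 0 in replicates 1 and 2 and measured 7.06 FPKM in replicate 3. All LY19Y646F values lay below all LY19WT values, with a log2 difference of -3.74 (SE 0.88, limma adjusted p 0.025). Of all tested genes 703, or 6.58%, were listed at 0 in a library while another of the same line had at least 10 FPKM. The RAD54L rows listed at 0 were not marked as failed, and the cause of such entries was not tested. With values listed at 0 taken as missing, the RAD54L log2 difference was -1.73, resting on 1 LY19Y646F library. The authors' deposited table lists 61.9 FPKM for LY19WT and 20.8 FPKM for LY19Y646F. The call was lost without any 1 of the LY19WT libraries (adjusted p 0.072, 0.089 and 0.082 without replicates 1, 2 and 3), without LY19Y646F replicate 1 (0.067) or 2 (0.083), and with a pseudocount of 0.1 FPKM (0.055).

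BLM, the Bloom syndrome helicase that dissolves joined DNA intermediates, measured 27.6, 31.6 and 32.1 FPKM against 18.4, 23.6 and 24.1 FPKM. The lines did not overlap, but the log2 difference of -0.46 (SE 0.14) had a limma adjusted p of 0.063. It passed with the replicate number as a block (adjusted p 0.028). BRCA2, which prepares resected ends for strand exchange, measured 13.7, 18.4 and 9.92 FPKM against 4.47, 6.08 and 10.9 FPKM, with LY19Y646F replicate 3 inside the LY19WT range (log2 difference -0.92, SE 0.36, limma adjusted p 0.12).

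The MRN complex, which senses and trims broken ends, is made of RAD50, NBN and MRE11A. RAD50, its structural arm, measured 12.4, 14.8 and 16.5 FPKM against 12, 15.3 and 16.5 FPKM. NBN, which links the complex to ATM, measured 29.9, 33.5 and 43.9 FPKM against 29.1, 39.6 and 39.3 FPKM. Both pairs of ranges overlapped almost fully, with 95% intervals of the log2 difference from -0.44 to 0.43 for RAD50 and from -0.49 to 0.52 for NBN. MRE11A, the nuclease of the complex, was named in rows of 32.5, 40.1 and 36.6 FPKM in LY19WT against 15.3, 18.1 and 19.7 FPKM in LY19Y646F, so that no libraries overlapped. Its row also named the receptor gene GPR83 in LY19WT replicate 1 and LY19Y646F replicate 3, which kept it out of the test. In the libraries where GPR83 had a row of its own, that row held between 0.106 and 0.524 FPKM. With merged rows counted for every gene, MRE11A had a log2 difference of -1.0 (limma adjusted p 0.0069). Under that setting 11 of 44 repair genes were called, and MRE11A and PMS2 were the only calls gained.

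BARD1, the partner of BRCA1 in a ubiquitin ligase, measured 13.5, 14.6 and 14.8 FPKM against 11.5, 15.5 and 13.1 FPKM, with a 95% interval of the log2 difference from -0.44 to 0.25. BRCA1 itself measured 21.4, 25.3 and 27.8 FPKM in LY19WT against 25.1 FPKM in LY19Y646F replicate 1. In LY19Y646F replicates 2 and 3 its rows of 55.8 and 35.6 FPKM also named VAT1, which kept BRCA1 out of the test. PALB2, which bridges BRCA1 and BRCA2, measured 8.81, 9.33 and 10.0 FPKM in LY19WT against 10.3 FPKM in LY19Y646F replicate 3. It was listed at 0 in LY19Y646F replicate 1, and its row of 285 FPKM in replicate 2 also named NDUFAB1, a gene of 251 to 299 FPKM in the LY19Y646F libraries. RAD52, an annealing factor, was listed at 0 throughout, in a row that also named RP11-359B12.2.

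Among damage signalling genes 1 of 6 tested members rose and 0 fell. RNF168, a ubiquitin ligase that marks histones at breaks (hg19 chromosome 3, 196195654 to 196230639), measured 6.92, 11.4 and 12.7 FPKM in LY19WT against 20.4, 21.7 and 33.2 FPKM in LY19Y646F. The lines did not overlap, and the means of 10.4 ± 3.05 and 25.1 ± 7.09 FPKM (SD, n = 3 each) differed 2.42-fold (log2 difference 1.2, SE 0.29, limma adjusted p 0.029). The call was lost without LY19WT replicate 1 (adjusted p 0.057) or 2 (0.072) and without LY19Y646F replicate 2 (0.070) or 3 (0.077). RNF8, the ligase that acts just before RNF168, measured 16.4, 17 and 16.9 FPKM against 14.6, 17.1 and 16.7 FPKM in a row shared with a small RNA pseudogene. Its 95% interval of the log2 difference ran from -0.32 to 0.21.

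ATM, the kinase activated by double-strand breaks, measured 10.1, 11.2 and 12.2 FPKM in LY19WT against 13.6, 14.1 and 14.3 FPKM in LY19Y646F. The lines did not overlap, with a log2 difference of 0.31 (SE 0.11) and a limma adjusted p of 0.092. ATR, the kinase of stalled forks, measured 11.5, 14.2 and 15.0 against 7.85, 12 and 11.5 FPKM (limma adjusted p 0.23). RP11-383G6.3 was also named in the ATR row in 4 libraries. CHEK2, a kinase downstream of ATM, measured 44.5, 49.3 and 77.3 FPKM against 42.4, 104 and 106 FPKM, so that LY19Y646F replicate 1 stood below all LY19WT libraries (limma adjusted p 0.44). TP53BP1, which protects ends from resection, was likewise lowest in LY19Y646F replicate 1, at 5.53 FPKM, with the other libraries between 10.8 and 16.5 FPKM (limma adjusted p 0.43). CHEK1, the kinase downstream of ATR, shared its row with STT3A in all 6 libraries, at 91.9 to 171 FPKM, and its own level was not separated.

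In end joining 1 of 6 tested genes rose and 1 fell. PRKDC, the catalytic subunit of the DNA-dependent protein kinase, measured 121, 134 and 152 FPKM in LY19WT against 56.3, 64.2 and 62.0 FPKM in LY19Y646F. Each LY19Y646F library held less than any LY19WT library, and the means of 136 ± 15.3 and 60.8 ± 4.09 FPKM (SD, n = 3 each) differed 2.23-fold. The log2 difference of -1.14 (SE 0.12) had the smallest limma adjusted p of the repair genes, 0.0013. XRCC5 and XRCC6 encode the Ku80 and Ku70 proteins that hold DNA ends and recruit this kinase. XRCC5 measured 245, 291 and 301 FPKM against 207, 266 and 271 FPKM, with a 95% interval of the log2 difference from -0.55 to 0.19. A non-coding gene was also named in the XRCC5 row in all 6 libraries, and the level of XRCC5 alone was not separated. XRCC6 measured 342 and 367 FPKM in LY19WT replicates 1 and 3 and 332, 378 and 419 FPKM in LY19Y646F, its LY19WT replicate 2 row having failed. The Ku genes, with PARP1 and APEX1, had the highest mean FPKM in LY19WT of the 48.

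XRCC4, the scaffold of the end-joining ligase (hg19 chromosome 5, 82373317 to 82649606), measured 24.5, 19 and 26.9 FPKM in LY19WT against 40.01, 40.3 and 39.5 FPKM in LY19Y646F. The lines were well apart, at means of 23.5 ± 4.10 and 39.9 ± 0.391 FPKM (SD, n = 3 each), a 1.70-fold difference (log2 difference 0.76, SE 0.15, limma adjusted p 0.014). Without LY19Y646F replicate 2 the adjusted p was 0.051. LIG4, the ligase that XRCC4 stabilizes, measured 13.4, 16.2 and 18.0 FPKM against 9.15, 11.9 and 2.63 FPKM. All its LY19Y646F values were lower, but the spread in that line left the log2 difference of -1.10 (SE 0.50) at a limma adjusted p of 0.16.

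POLQ, the polymerase of microhomology-mediated joining, measured 12.1, 14.4 and 14.5 FPKM against 10.4, 12.8 and 13 FPKM (limma adjusted p 0.43). POLL, a gap-filling polymerase, was listed at 0 in 3 libraries and measured 7.37, 3.81 and 5.56 FPKM in LY19WT replicates 1 and 2 and LY19Y646F replicate 1. DPCD, whose row covers POLL in the 3 libraries that list POLL at 0, measured 8.49 to 13.3 FPKM in LY19WT against 22.5 to 28.5 FPKM in LY19Y646F. NHEJ1, the XLF protein, shared its row with SLC23A3 or also CNPPD1 in each library, at 8.97 to 26.6 FPKM and 21.1 to 38.7 FPKM. DCLRE1C, the Artemis nuclease that opens hairpins during V(D)J recombination, measured 8.71 and 9.22 FPKM in the 2 LY19WT libraries where it did not share a row with ACBD7. The shared rows held 7.22 FPKM in LY19WT replicate 1 and 11.5, 0 and 3.79 FPKM in LY19Y646F. For DCLRE1C the authors' deposited table gives 33.1 and 39.5 FPKM.

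**Figure D2:**
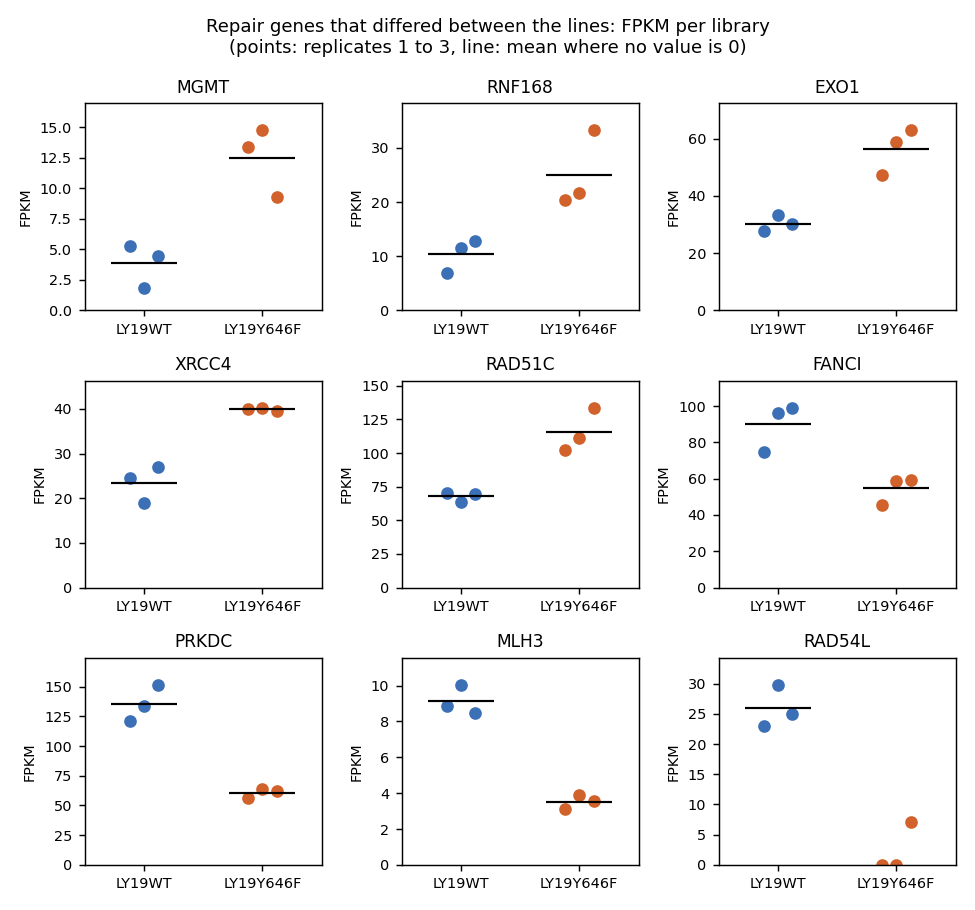
FPKM in each library (points, replicates 1 to 3 from left to right) for the 9 repair genes that passed the test, with the mean of each line as a bar where no value is 0 and vertical axes that start at 0. In each panel the LY19WT and LY19Y646F points do not overlap, and RAD54L is listed at 0 in 2 LY19Y646F libraries.

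Mismatch repair had 1 higher and 1 lower of 4 tested genes. EXO1, the exonuclease that removes the mismatched strand (hg19 chromosome 1, 242011269 to 242058450), measured 27.7, 33.3 and 30.0 FPKM in LY19WT against 47.5, 58.8 and 62.9 FPKM in LY19Y646F. No libraries overlapped, and the means of 30.3 ± 2.85 and 56.4 ± 7.99 FPKM (SD, n = 3 each) differed 1.86-fold (log2 difference 0.87, SE 0.14, limma adjusted p 0.0076). MLH3, a MutL subunit (hg19 chromosome 14, 75480467 to 75518235), measured 8.85, 10.0 and 8.46 FPKM against 3.13, 3.88 and 3.59 FPKM. It was 2.58-fold lower in LY19Y646F, from 9.12 ± 0.823 to 3.53 ± 0.378 FPKM (SD, n = 3 each), with no overlap (log2 difference -1.16, SE 0.13, limma adjusted p 0.0019). A non-coding gene, RP11-950C14.3, shared its row in LY19Y646F replicates 1 and 3, and the value of 3.88 FPKM in replicate 2 came from a row of its own.

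MSH6, which recognizes single mismatches, measured 125, 153 and 159 FPKM against 117, 127 and 134 FPKM (log2 difference -0.20, SE 0.12, limma adjusted p 0.28). AC006509.4 was also named in the MSH6 row in 4 libraries. MSH3, which recognizes longer loops, was listed at 0 in LY19WT replicate 1 and measured 11.1 and 12.7 FPKM in replicates 2 and 3, against 14.0, 18.0 and 18.2 FPKM in LY19Y646F. Its log2 difference of 1.68 (SE 1.07, limma adjusted p 0.30) was 0.45 (0.094) with the 0 taken as missing. PMS2, a MutL endonuclease, was listed at 0 in each LY19WT library and measured 20.2 and 15.2 FPKM in LY19Y646F replicates 1 and 3. In LY19Y646F replicate 2 its row of 13.8 FPKM also named RSPH10B, so it was not tested. With merged rows counted for every gene, PMS2 had a log2 difference of 4.10 (limma adjusted p 0.00015), which rests on the listed values of 0 in LY19WT. PMS2 has near-identical pseudogene copies whose reads can be shared with it.

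In the Fanconi anaemia pathway 0 of 5 tested genes rose and 1 fell. FANCI, which forms the clamp on crosslinked DNA with FANCD2 (hg19 chromosome 15, 89787180 to 89860492), measured 74.7, 96.2 and 99.1 FPKM in LY19WT against 45.6, 58.7 and 59.5 FPKM in LY19Y646F. The lines did not overlap, and the means of 90.0 ± 13.3 and 54.6 ± 7.82 FPKM (SD, n = 3 each) differed 1.65-fold (log2 difference -0.71, SE 0.17, limma adjusted p 0.026). The call was lost without LY19WT replicate 2 (adjusted p 0.090) or 3 (0.085), without LY19Y646F replicate 2 (0.061) or 3 (0.054), and with libraries centred on their medians (0.10). Values for FANCD2 were higher in LY19Y646F, at 38.9, 43.6 and 47.1 FPKM in LY19WT against 65.8 and 68.4 FPKM in LY19Y646F replicates 2 and 3. In LY19Y646F replicate 1 its row of 360 FPKM also named ARPC4, TTLL3 and VHL, which kept it out of the main test. With merged rows counted for every gene, FANCD2 had a log2 difference of 1.43 (SE 0.71, limma adjusted p 0.22). EMC3-AS1 was named in the FANCD2 row in all 6 libraries.

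FANCL, the ubiquitin ligase that activates that clamp, measured 22.3, 18.8 and 27.1 FPKM against 18.8, 10.6 and 11.7 FPKM (log2 difference -0.72, SE 0.26, limma adjusted p 0.089). It passed without LY19Y646F replicate 1 (adjusted p 0.021). FANCA, FANCB and FANCC are subunits of the core complex around FANCL. FANCC was lower in each LY19Y646F library, at 9.46, 7.62 and 8.11 FPKM against 6.27, 6.46 and 4.97 FPKM, with a limma adjusted p of 0.074. FANCB measured 4.37 to 6.42 FPKM and 4.54 to 5.68 FPKM, which overlap (95% interval of the log2 difference from -0.45 to 0.41). NPM1P9 was also named in the FANCB row in LY19WT replicate 2. FANCA measured 20.9, 7.32 and 5.62 FPKM against 16.4, 13.5 and 19.98 FPKM, where LY19WT replicate 1 was above all others. Its limma adjusted p was 0.33, and 0.021 without that library. For FANCA the authors' deposited table points down, from 67.3 to 55.1 FPKM.

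In base excision repair 0 of 3 tested genes passed, and the other 3 could not be tested. At an unadjusted p under 0.05 the limma count was also 0, while limma with library weights called PARP1 and PARP2. PARP1, the main sensor of strand breaks that makes poly(ADP-ribose), measured 301, 283 and 270 FPKM in LY19WT against 265, 238 and 236 FPKM in LY19Y646F. Its paralog PARP2 measured 30.2, 33.1 and 32.5 FPKM against 22.6, 27.5 and 29.7 FPKM. Neither overlapped between the lines, and the log2 differences of -0.21 (SE 0.086) and -0.26 (SE 0.13) had limma adjusted p of 0.13 and 0.19. APEX1, the endonuclease that cuts abasic sites, measured 443, 378 and 584 FPKM against 202, 448 and 285 FPKM (log2 difference -0.64, SE 0.33, limma adjusted p 0.21), with overlapping ranges. In LY19WT replicates 1 and 3, the highest values of that line, the APEX1 row also named RP11-203M5.7. LY19Y646F replicate 2, at 448 FPKM, lay between them in a row that named APEX1 only.

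XRCC1, the scaffold of single-strand break repair, shared a row with IRGQ in each library, at 15.3 to 28.7 FPKM and 13.1 to 38.7 FPKM. OGG1, the glycosylase for oxidized guanine, was listed at 0 in 5 libraries and had a row of 377 FPKM with ARPC4 and TTLL3 in LY19WT replicate 1. The authors' deposited table gives OGG1 5.44 FPKM in LY19WT against 22.9 FPKM in LY19Y646F. MUTYH, the glycosylase that removes adenine opposite oxidized guanine, was listed at 0 in all 6 libraries. Its row also named TESK2 in LY19WT replicates 1 and 2 and LY19Y646F replicate 2, which kept it out of the test. TOE1, which lies beside MUTYH, had a row of its own of 22.5 to 33.0 FPKM in 4 of the libraries.

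**Figure D3:**
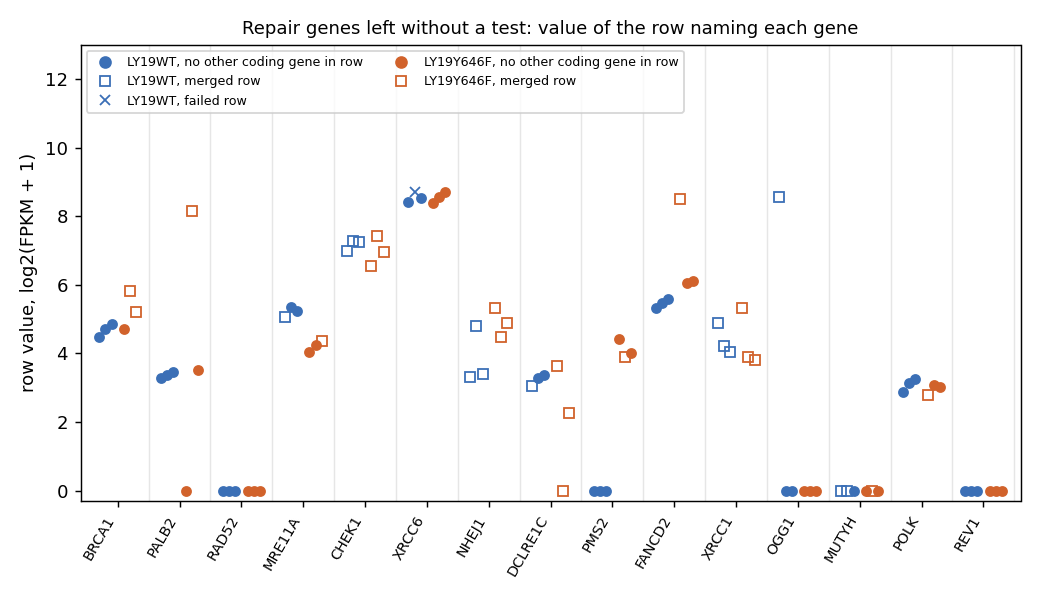
Value of the row that names each of the 15 repair genes without a test, as log2(FPKM + 1), in the 3 LY19WT (blue) and 3 LY19Y646F (orange) libraries. Open squares mark rows that also name another protein-coding gene, such as PALB2 at 285 FPKM in LY19Y646F replicate 2 and OGG1 at 377 FPKM in LY19WT replicate 1, and the cross marks the failed XRCC6 row.

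MGMT, which removes alkyl groups from guanine and is used up in doing so, had the largest rise among the called repair genes (hg19 chromosome 10, 131265448 to 131566271). It measured 5.29, 1.84 and 4.45 FPKM in LY19WT against 13.4, 14.7 and 9.31 FPKM in LY19Y646F. No libraries overlapped, and the means of 3.86 ± 1.80 and 12.5 ± 2.82 FPKM (SD, n = 3 each) differed 3.23-fold (log2 difference 1.53, SE 0.36, limma adjusted p 0.025). With the replicate number as a block the adjusted p was 0.064. Leaving out LY19WT replicate 3 gave 0.062, and leaving out LY19Y646F replicate 1 or 2 gave 0.069 or 0.091.

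Among translesion polymerases, POLH, which copies past ultraviolet damage and acts in somatic hypermutation, measured 24.1, 41.9 and 26.2 FPKM against 27.3, 25.2 and 20.2 FPKM (limma adjusted p 0.41). POLK was read at 6.32 to 8.49 FPKM in LY19WT against 5.96 to 7.49 FPKM in LY19Y646F, with ANKDD1B in its row in LY19Y646F replicate 1. REV1, the scaffold for these polymerases, was listed at 0 in all 6 libraries, while the authors' deposited table gives it 44.7 and 51.0 FPKM. EIF5B, whose row overlaps that of REV1, measured 63.7 to 86.4 FPKM in LY19WT and 87.7 to 129 FPKM in LY19Y646F. The EIF5B row covered 100% of the REV1 row in LY19Y646F replicate 3 and 0.951% to 5.99% of it in the other libraries.

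Ratios between partners of the same complex were taken within each library for 9 pairs. The ratio of XRCC4 to LIG4 was 1.83, 1.17 and 1.5 in LY19WT and 4.37, 3.37 and 15.0 in LY19Y646F. PRKDC stood to XRCC5, whose row also named a non-coding gene, at 0.493, 0.460 and 0.503 and at 0.272, 0.242 and 0.229. MRE11A stood to RAD50 at 2.22 to 2.70 and 1.19 to 1.28, merged rows included. By contrast the ratio of NBN to RAD50 was 2.26 to 2.66 in LY19WT and 2.39 to 2.59 in LY19Y646F, and these ranges overlap. MSH6 stood to MSH3 at 13.8 and 12.5 in the 2 LY19WT libraries that list MSH3 above 0 and at 8.36, 7.08 and 7.34 in LY19Y646F. With shared rows included, FANCD2 stood to FANCI at 0.453 to 0.521 and 1.12 to 7.89, and BRCA1 to BARD1 at 1.58 to 1.88 and 2.18 to 3.60. XRCC6 stood to XRCC5 at 1.22 to 1.42 in LY19WT, its failed row included, and at 1.42 to 1.61 in LY19Y646F, where the nearest libraries almost touch. The ratio of PARP1 to PARP2 overlapped, at 8.30 to 9.96 and 7.94 to 11.7. These ratios of FPKM are descriptions, and no test was run on them.

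**Figure D4:**
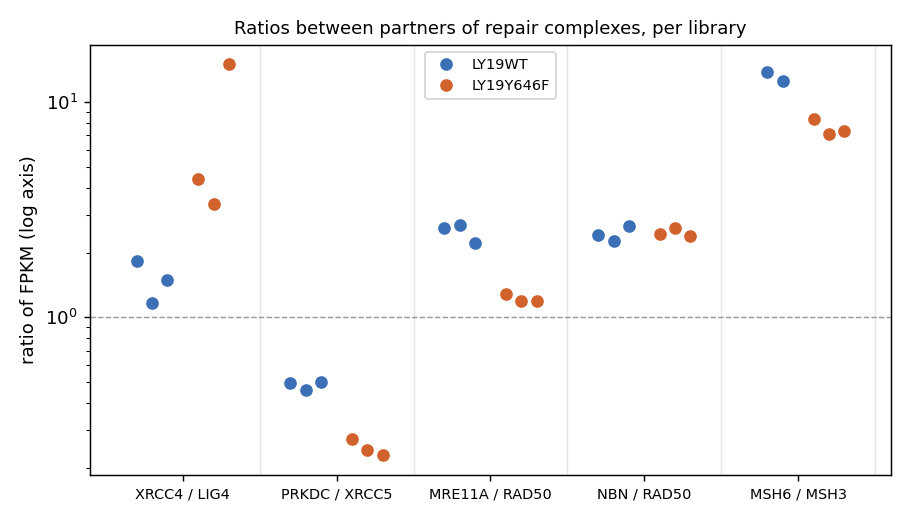
Ratio of FPKM for 5 of the pairs of partners in repair complexes in each library, on a log axis, LY19WT in blue and LY19Y646F in orange, with a dashed line at 1. The ratio of XRCC4 to LIG4 lies at 1.17 to 1.83 in LY19WT and at 3.37 to 15.0 in LY19Y646F, while that of NBN to RAD50 overlaps between the lines.

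Other genes of these pathways came from a list that includes nucleotide excision repair. Of 121 found in the files 84 were tested, 13 rose and 9 fell, or 26.2%, with a median log2 difference of 0.06. That share is near the 27.3% of the tested repair genes above and below the 33.2% of all tested genes. Of all tested genes 16.7% rose and 16.5% fell. Translesion and tolerance genes had 2 higher and 1 lower of 6 tested. HLTF, a helicase-like ligase that marks PCNA at stalled forks, rose from 0.0494, 0.0514 and 0.284 FPKM to 14.8, 17.6 and 18.3 FPKM (log2 difference 3.99, SE 0.16, limma adjusted p 4.7e-05). UBE2B, the conjugating enzyme that works with RAD18, rose from 74.4 ± 2.40 to 116 ± 4.35 FPKM (SD, n = 3 each). PRIMPOL, which restarts replication past lesions, measured 5.89, 4.33 and 4.25 FPKM in LY19WT and was listed at 0 in each LY19Y646F library, where the authors' deposited table has 20.7 and 8.58 FPKM.

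The other homologous recombination genes had 2 higher and 1 lower of 19 tested. RMI2, a partner of BLM, rose from 19.2 ± 0.85 to 40.04 ± 2.76 FPKM (SD, n = 3 each). RECQL5, a helicase, was listed at 0 in each LY19WT library and measured 10.1, 10.2 and 10.9 FPKM in LY19Y646F, while the authors' deposited table has 6.77 and 13 FPKM. RAD51B, of the same family as RAD51C, fell from 12, 6.08 and 9.83 FPKM to 1.44 and 2.39 FPKM, with LY19Y646F replicate 3 listed at 0. Signalling genes had 1 higher and 1 lower of 8, with RAD1 at 34.4 ± 2.71 and 52.8 ± 2.01 FPKM and PAXIP1 at 32.5 ± 6.52 and 14.8 ± 1.42 FPKM (SD, n = 3 each).

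Other base excision genes had 1 higher and 2 lower of 12 tested. UNG, the glycosylase that removes uracil from antibody genes, rose from 36.3, 41.3 and 39.3 FPKM to 118, 72.6 and 71.9 FPKM (log2 difference 1.11, SE 0.22, limma adjusted p 0.014). NEIL3, a glycosylase active on crosslinks, fell from 21.5 ± 2.42 to 5.27 ± 0.297 FPKM, and TDP1, which frees trapped topoisomerase, from 34.8 ± 3.79 to 13.7 ± 2.36 FPKM (SD, n = 3 each). Fanconi genes had 2 higher and 2 lower of 13, including FANCF, an adaptor of the core complex, which fell from 9.18 ± 0.148 to 2.27 ± 0.150 FPKM. The other Fanconi genes called were C19orf40, at 1.54 ± 0.0860 and 5.33 ± 1.28 FPKM, USP1, the enzyme that removes ubiquitin from FANCD2, at 71.0 ± 6.80 and 108 ± 17.4 FPKM, and UBE2T, the conjugating enzyme of FANCL, at 144 ± 21.7 and 99.9 ± 6.28 FPKM (SD, n = 3 each).

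In end joining, LIG3, a second ligase, rose from 20.5 ± 0.769 to 28.4 ± 1.02 FPKM and DNTT, which adds nucleotides to V(D)J junctions, fell from 120 ± 43.4 to 0.0703 ± 0.0193 FPKM (SD, n = 3 each), of 6 tested. Other mismatch repair genes had 2 higher and 1 lower of 6 tested. Among them PCNA, the sliding clamp of replication, rose from 307 ± 28 to 600.1 ± 45.2 FPKM (SD, n = 3 each). In nucleotide excision repair 2 of 13 tested genes rose and 0 fell, ERCC6, the Cockayne syndrome B protein, from 2.24 ± 0.240 to 5.67 ± 0.633 FPKM and RAD23B from 124 ± 6.88 to 167 ± 12.7 FPKM.

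Many repair genes follow the cell cycle, so a list of proliferation genes is given beside them. Of 17 tested, 8 were called, or 47.1%, against 33.2% of all tested genes. Among them 2 rose and 6 fell, where 16.7% and 16.5% of all tested genes did, and the median log2 difference was 0.14. CCNB2, a mitotic cyclin, fell from 89.2 ± 0.381 to 48.9 ± 0.493 FPKM, and GMNN, an inhibitor of origin licensing, rose from 91.2 ± 3.0 to 160.0 ± 3.67 FPKM (SD, n = 3 each). FOXM1, a transcription factor of the G2 phase, and TYMS, which makes thymidylate, fell by 1.04 and 0.93 on the log2(FPKM + 1) scale. The part of cell cycle state in the repair gene differences was not tested.

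The authors' deposited table of mean FPKM per line lists 37 of the 48 genes. For 28 of the 30 tested genes in it the difference, recomputed on the log2(FPKM + 1) scale, had the same direction, and for 9 of the 9 called ones, although both sources come from the same reads. The exceptions were RAD50 and FANCA, neither of which was called. Levels differed more than directions. In LY19WT the table's FPKM was a median of 1.60 times the library mean over these 30 genes, with ATM at 46.7 against 11.2 FPKM and BARD1 at 54.6 against 14.3 FPKM. XRCC5 is the opposite extreme, with 0.663 FPKM in the authors' deposited table against 279 FPKM in library rows that also named a non-coding gene. Size was close for PRKDC (-1.19 and -1.14) and XRCC4 (0.80 and 0.76), and smaller in the authors' table for RAD54L (-1.53 and -3.74), RNF168 (0.68 and 1.2) and MGMT (0.85 and 1.53).

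**Figure D5:**
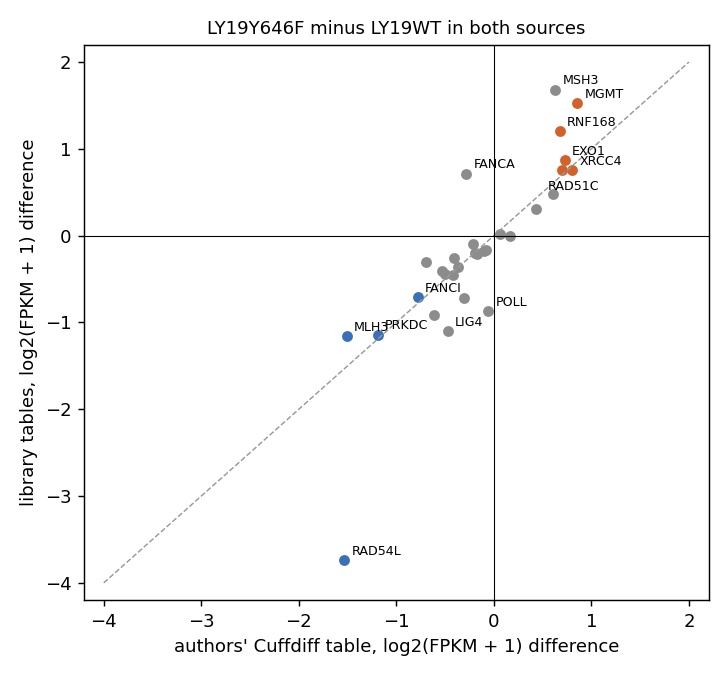
Difference LY19Y646F minus LY19WT on the log2(FPKM + 1) scale in the authors' deposited table (horizontal axis) and in the fit to the library tables (vertical axis) for the 30 tested repair genes in both, with a dashed line of equality. Orange and blue mark genes called higher and lower, and RAD54L at -1.53 and -3.74 lies farthest from the line.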

How the data were processed

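The authors aligned reads of 85 nucleotides with STAR 2.5.3a and ran Cufflinks 2.2.1 and Cuffdiff 2.2.1 on hg19, per the submitters' processing notes and the labels' protocols. The deposited library tables hold FPKM per assembled locus, per the file headers, and 3189 to 3443 rows per library name several genes. The authors' deposited table gives, for each line, its mean FPKM, with log2 ratios. Rows were joined by symbol. A value counted for a coding gene when no other coding gene (GENCODE release 29 types, RefSeq synonyms for older symbols) was named in its row, and for a non-coding gene when it was alone. Symbols failing this in a library, or having a failed row, were dropped (8974). Coordinates are the smallest deposited row, counted from 1.

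Genes averaging 0.5 FPKM or more entered a fit of log2(FPKM + 1) by limma (version 3.58.1, R 4.3.3, eBayes with trend, two-sided, Benjamini-Hochberg over 10677 genes, threshold 0.05), and 95% intervals come from that fit. Changes on this scale understate those of low genes. The fit was tested on simulated data. Python 3.11.15, pandas 2.3.3 and matplotlib 3.10.9 were used for joins and plots. The tables hold no read counts, so absolute depth is unknown. Cufflinks intervals of 952 rows gave rough relative depths of 1.00 to 1.10, and precision rests on 3 libraries per line. The labels do not say whether replicates were separate cultures, so p-values measure the spread between libraries.

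Deviations from the line means correlated at 0.27, 0.11 and 0.13 between libraries with replicate numbers 1, 2 and 3, and between -0.18 and 0.10 for unlike numbers, over tested genes. Of these, 0.11 and 0.13 are close to the highest value for unlike numbers, so the numbers may pair the samples only weakly. Any such pairing comes from the data and not the labels. The main fit has no block, and the blocked fit is given where it changes a call. The genes and lists were chosen with earlier results of these data known. Named are all 48 genes, EZH2, and up to 4 called genes per other list with the smallest adjusted p. Some genes of the other lists are not reported here.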

Additional observations from a re-analysis of the deposited data

How the results depend on the processing

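The 9 calls among the repair genes numbered 8 to 12 under the alternative settings that kept all libraries, except that library weights gave 17 (7 higher, 10 lower), with 45 instead of 22 among the other repair genes and 5748 instead of 3547 among all tested genes. Taking listed values of 0 as missing, a setting chosen after seeing the data, gave 12. Leaving out 1 library gave 4 to 8 calls among the repair genes, 18 to 31 among the other repair genes and 2767 to 4044 among all tested genes. Fewer samples enter those fits. The fit with the replicate block gave 9 calls (4 higher, 5 lower), with BLM in place of MGMT, and 30 among the other repair genes, and it changed no other call of a repair gene. Centring libraries on their medians moved the median difference of all tested genes from -0.03 to 0.10.

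Differences near 0 changed sign without being called. With quantile normalization RAD50 stood at 0.022, NBN at -0.088 and FANCB at 0.17, and with median centring BARD1 stood at 0.038, RAD50 at 0.13, RNF8 at 0.082 and FANCB at 0.12. With library weights BARD1 stood at 0.029, RAD50 at 0.024 and RNF8 at 0.00034, and with values of 0 as missing POLL stood at 0.048. Leaving out 1 library moved RAD50 between -0.11 and 0.12, NBN between -0.10 and 0.17, FANCB between -0.13 and 0.10 and RNF8 between -0.095 and 0.011. The cause was not tested. Absolute depth is unknown, so low values carry no detection limit.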
